A study of Mus musculus with 2 samples.

Results

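Of the 31053 genes counted in mouse liver leukocytes, 9 transcription factor genes that set monocyte and macrophage fate are described here: Nr4a1, Cebpa, Cebpb, Spi1, Klf4, Pou2f2, Maf, Nr1h3 and Rbpj. They were chosen by symbol, and each matched 1 row of the gene list. Single CD45+CD11b+ leukocytes of C57BL/6 mice were sequenced from transcript 3′ ends in 2 droplet libraries, Ctrl from uninjured livers and RES from livers whose fibrosis had resolved. Mononuclear cells of 5 mice went into each pool, and with a single library on either side no difference between Ctrl and RES has a replicate check. What differs between the groups and what differs between the libraries cannot be told apart. How the livers were injured, how long they recovered, and the age and sex of the mice are not known from the sources used here. Depth was 20379164 UMIs (unique molecular identifiers, the count of distinct captured transcripts) over 3691 barcodes in Ctrl and 34119806 over 4278 in RES. Of these, 3344 and 4015 cells passed the filters, and their median depth was 4508.5 and 6359 UMIs. Among them 49 barcode sequences occurred in both libraries.

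These factors divide the work of building mononuclear phagocytes. PU.1 (Spi1) and the C/EBP proteins open the myeloid programme in progenitors, NR4A1 and C/EBPβ (Cebpb) are needed for Ly6C-low nonclassical monocytes, and KLF4 acts in monocyte differentiation. OCT2 (Pou2f2) is an octamer-binding factor best known from B cells. c-Maf (Maf) and the oxysterol-sensing nuclear receptor LXRα (Nr1h3) belong to tissue macrophages, LXRα being a defining factor of Kupffer cells, and RBPJ carries Notch signals to DNA and is needed by part of the type 2 conventional dendritic cells (cDC2).

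Cells were put into 6 classes by raw UMI sums of marker genes, none of which is a member. Monocyte-like cells were split by the classical markers Ly6c2, Ccr2, Vcan, Chil3 and F13a1 and the nonclassical markers Ace, Treml4, Cd300e, Adgre4, Eno3 and Spn. There were 358 Ctrl and 517 RES classical cells, 159 and 151 intermediate cells with both marker sets, and 274 and 471 nonclassical cells. C1q macrophage-like cells, with at least 10 UMIs of C1qa, C1qb and C1qc, numbered 88 and 54. A class with at least 10 UMIs of Arg1 and Spp1 held 8 Ctrl and 541 RES cells. It rests on only 2 markers and is called the Arg1-high class. Its size depended on the gate. With gates scaled to the depth of each cell it held 38 Ctrl and 561 RES cells, by clusters 23 and 740, and with stricter gates 3 and 391. cDC2-like cells, chosen by Cd209a, Flt3, Zbtb46, Kmo and Clec10a, numbered 135 and 85. Together these were 1022 Ctrl cells (30.6% of those kept) and 1819 RES cells (45.3%). Natural killer (NK) cells, 1421 and 1428 in number, were set beside them as a comparison for monocyte transcripts. Of the 5 Kupffer cell markers 0 were seen in classical and intermediate cells, and their sum in C1q macrophage-like cells was 39.3 CPM (a UMI sum scaled to the UMI total of the class) in Ctrl and 7.21 CPM in RES. In the Arg1-high class it was 99.8 CPM in the 8 Ctrl cells, all from 1 of the 5 genes, and 17.6 CPM in RES. C1q genes themselves were at 6283 and 4336 CPM in the C1q class, so its cells are described by C1q and not as Kupffer cells.

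RefSeq promoter entries (GRCm38.p6) were found for 7 of the 9 members. The 250 bases before the transcript start are shown for Nr4a1, Cebpb and, by the first of its 2 entries, Rbpj. Nr4a1 and Cebpb are 2 of the members highest in nonclassical cells, and Rbpj was highest in the Arg1-high class of RES. Klf4 and Pou2f2, also highest in nonclassical cells, had larger ratios over classical cells than Cebpb. The 2 windows shown for that class are those with the most TGACG matches among the members. Capitals in the first 2 mark TGACG or its reverse complement CGTCA, a part of the cAMP response element TGACGTCA. Capitals in the third mark TGGGAA or TTCCCA, the core bound by RBPJ itself. The windows are chr15:101266596-101266845, chr2:167688665-167688914 and chr5:53590096-53590345, all on the plus strand.
Nr4a1: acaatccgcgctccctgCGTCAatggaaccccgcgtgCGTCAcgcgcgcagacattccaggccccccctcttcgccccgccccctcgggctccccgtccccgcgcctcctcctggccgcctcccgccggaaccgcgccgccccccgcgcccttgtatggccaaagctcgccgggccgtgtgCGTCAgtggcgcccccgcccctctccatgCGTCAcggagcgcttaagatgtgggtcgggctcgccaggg
Cebpb: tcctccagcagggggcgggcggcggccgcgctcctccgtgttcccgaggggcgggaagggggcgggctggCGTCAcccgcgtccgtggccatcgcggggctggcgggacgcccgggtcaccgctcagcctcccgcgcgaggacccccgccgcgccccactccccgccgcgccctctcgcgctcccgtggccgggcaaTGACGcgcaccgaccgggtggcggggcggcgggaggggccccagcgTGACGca
Rbpj: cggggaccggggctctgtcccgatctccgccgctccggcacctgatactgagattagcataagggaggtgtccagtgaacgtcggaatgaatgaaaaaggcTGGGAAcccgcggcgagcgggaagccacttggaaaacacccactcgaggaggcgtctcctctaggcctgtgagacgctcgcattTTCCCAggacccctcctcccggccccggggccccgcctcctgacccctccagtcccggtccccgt
The Nr4a1 window held 4 TGACG matches and the Cebpb window 3, against at least 1 in 17.8% of 32851 promoter windows of the same length, at least 3 in 0.688% and at least 4 in 0.137%. Klf4 held 1, and Cebpa, Pou2f2, Nr1h3 and Rbpj held 0. The Rbpj window held 2 matches to TGGGAA, as did both Nr1h3 entries, where 2.77% of windows held as many. The second Rbpj entry held 1, as 21.6% of windows did. The whole element TGACGTCA was in 0 of the 9 member entries, where 1.55% of windows held it. Also searched for were the PU.1 motif GAGGAAGT, the octamer ATTTGCAT and the NBRE motif AAAGGTCA. Each was in 0 of the 9 entries, against 2.44%, 1.60% and 1.34% of windows. The motifs were picked after the expression values were known, and a match is a description of letters, not a binding site.

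In the GENCODE M21 annotation, Nr1h3 (ENSMUSG00000002108) runs on the minus strand of chromosome 2 from 91184061 to 91202834, and the acid phosphatase gene Acp2 starts head to head with it at 91202885. The 50 bases between the annotated starts, chr2:91202835-91202884 on the plus strand, are shown because Acp2 was the gene most like Nr1h3 in these data.
Nr1h3-Acp2 interval: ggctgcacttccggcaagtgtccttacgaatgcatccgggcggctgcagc
Annotated genes that were themselves counted overlap Cebpa (Gm45091), Cebpb (Tmem189), Pou2f2 (D930028M14Rik), Maf (Gm15655) and Rbpj (Gm10441 and Gm40304) on the opposite strand. Whether the counting used strand is not stated in any source used here, so counts of these 5 members could hold reads of the partner.

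Nr4a1, Pou2f2, Klf4 and Cebpb had their highest levels in nonclassical monocyte-like cells in both libraries, and by the gates each was ordered classical, intermediate, nonclassical from low to high. The 8 Ctrl cells of the Arg1-high class are left out of the Ctrl orders given here and below. Nr4a1, an orphan nuclear receptor, was at 114 CPM in classical, 280 CPM in intermediate and 550 CPM in nonclassical Ctrl cells, and at 101.2, 323 and 675 CPM in RES. In raw UMIs per cell this was 0.888, 2.38 and 3.30 in Ctrl and 1.07, 3.31 and 4.0 in RES. Each step up the order exceeded the counting error in both libraries. The log2 ratio of nonclassical over classical cells was 2.27 in Ctrl (95% counting interval 2.09 to 2.46) and 2.74 in RES (2.60 to 2.88).

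Pou2f2 gave the same picture at 357, 801 and 1818 CPM in Ctrl and 250, 685 and 1584 CPM in RES. Its nonclassical over classical ratio was 2.35 (2.24 to 2.45) in Ctrl and 2.66 (2.57 to 2.75) in RES. Klf4 was at 253, 448 and 885 CPM in Ctrl and 218, 415 and 786 CPM in RES, with ratios of 1.81 (1.68 to 1.94) and 1.85 (1.75 to 1.95). Cebpb was at 951, 1279 and 1955 CPM in Ctrl and 1593, 2162 and 3093 CPM in RES, with ratios of 1.04 (0.97 to 1.11) and 0.96 (0.91 to 1.0). The median nonclassical cell held 9 Cebpb UMIs in Ctrl and 16 in RES.

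**Figure D1:**
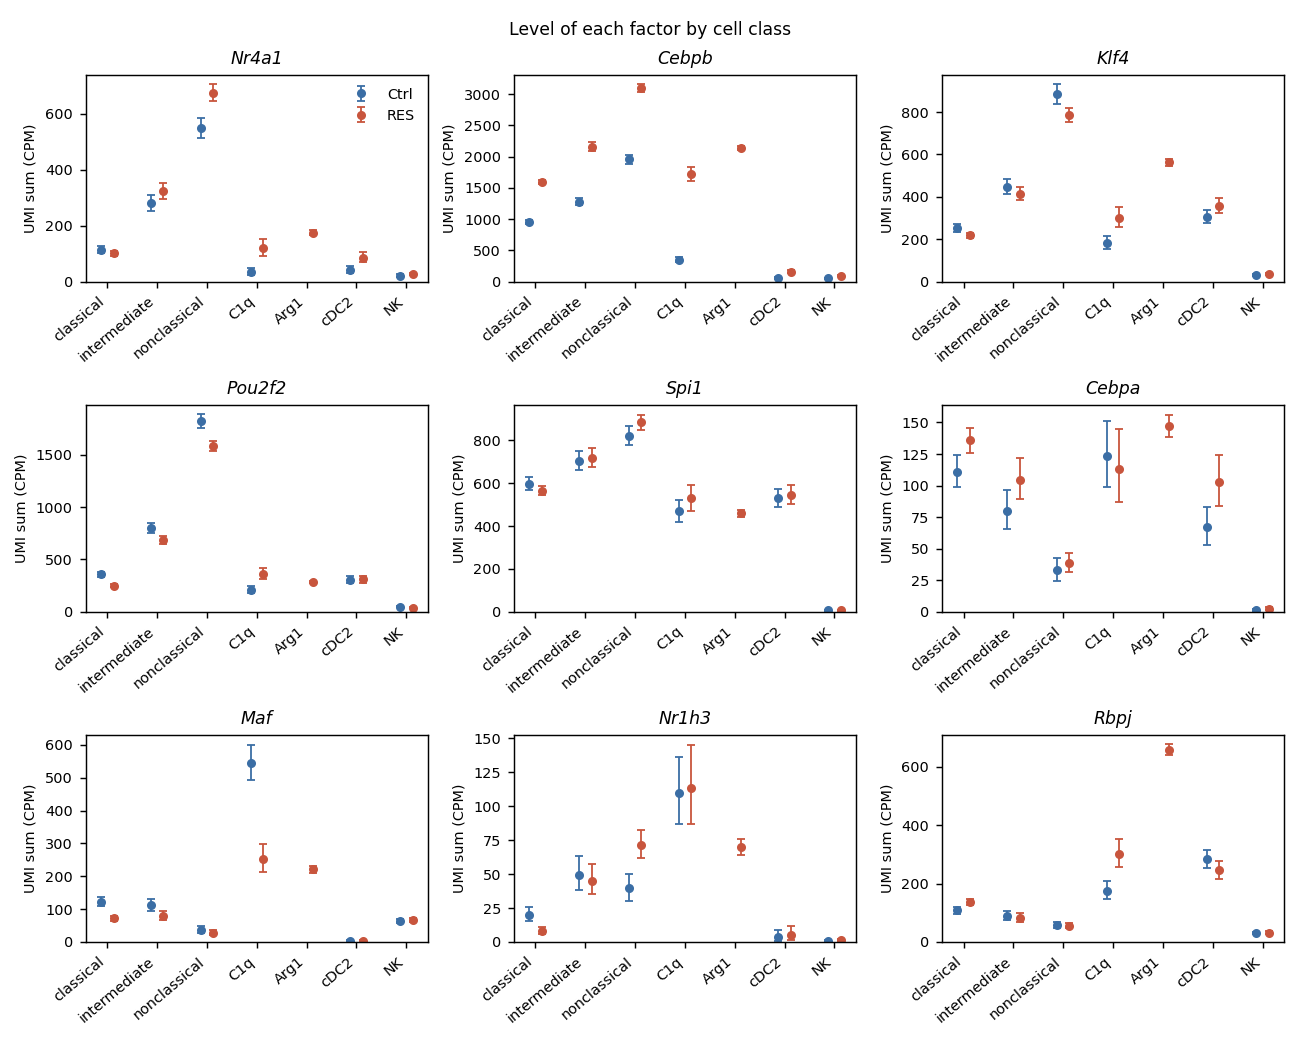
UMI sum of each factor (CPM of the class total, y axis from 0) by cell class (x axis) in Ctrl (blue) and RES (red). Bars are exact 95% Poisson intervals. The Ctrl Arg1-high class of 8 cells is left out, and NK cells are shown for comparison. Nr4a1, Cebpb, Klf4, Pou2f2 and Spi1 peak in nonclassical cells, Maf and Nr1h3 in C1q cells, and Rbpj in Arg1-high RES cells.

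Spi1, which encodes the pioneer factor PU.1, was the most even of the members across classes. Without the Arg1-high class, whose 36 Spi1 UMIs gave 299.5 CPM (210 to 415), it ranged 1.75-fold in Ctrl, from 469 CPM in C1q to 820 CPM in nonclassical cells, and 1.92-fold in RES, from 460 CPM in Arg1-high to 885 CPM in nonclassical cells. Its nonclassical over classical ratio was 0.46 (0.35 to 0.56) in Ctrl and 0.65 (0.57 to 0.72) in RES. In Ctrl the cDC2-like and C1q classes did not differ from each other beyond counting error, and in RES neither classical from cDC2-like nor cDC2-like from C1q cells did.

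Cebpa, which drives early granulocyte and monocyte commitment, ran the other way among monocytes. It was at 111 CPM in classical, 79.9 CPM in intermediate and 32.8 CPM in nonclassical Ctrl cells, and at 136, 105 and 38.3 CPM in RES. The nonclassical over classical ratio was -1.76 (-2.20 to -1.34) in Ctrl and -1.82 (-2.13 to -1.53) in RES. Nonclassical cells were the lowest of all classes for Cebpa in both libraries. In Ctrl, C1q did not differ from classical nor intermediate from cDC2-like cells beyond counting error, and in RES none of the 5 classes above differed from the next in the order. Maf and Rbpj were also lower in nonclassical than in classical cells, by -1.72 and -0.92 in Ctrl and -1.35 and -1.30 in RES.

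Called at a difference of 1.5-fold, 5 of the 9 members were higher and 3 lower in nonclassical than in classical Ctrl cells, where 18.2% of 5994 genes were higher and 13.6% lower. In RES 6 were higher and 3 lower, against 22.8% and 14.2% of 6136 genes. In both libraries at once 14% of 5780 genes were higher and 9.65% lower. The members' median log2 ratio was 0.98 in Ctrl and 0.96 in RES, against 0.09 and 0.13 over all genes. Nr1h3 was the member whose ratio differed most between the libraries, at 0.98 (0.44 to 1.52) in Ctrl and 3.12 (2.65 to 3.62) in RES. Its Ctrl value was 0.01 when classes were taken from clusters, and Spi1 in RES fell to 0.54 at the lowest among the alternatives, within 1.5-fold.

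**Figure D2:**
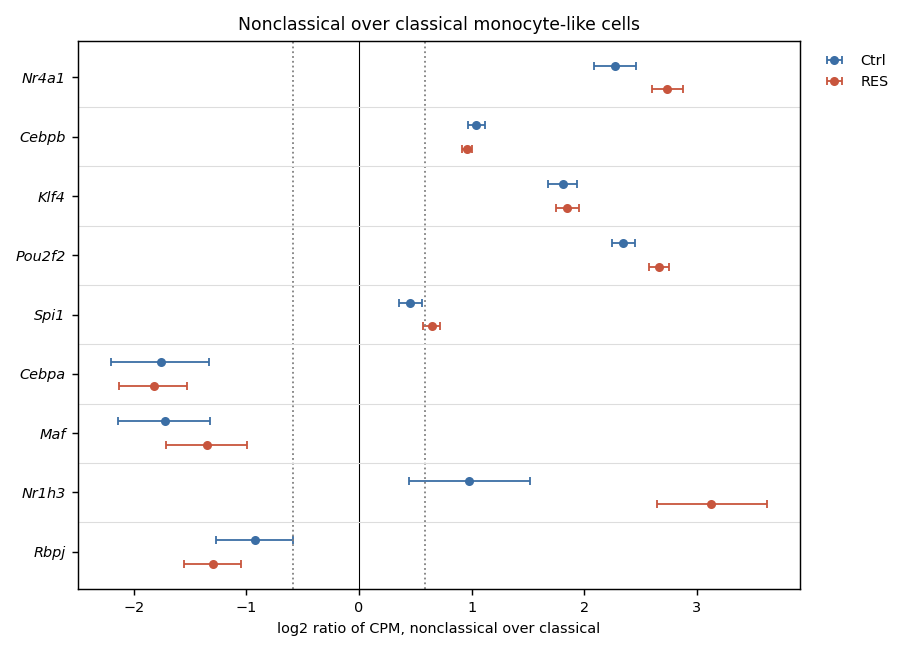
Log2 ratio of nonclassical over classical monocyte-like cells (x axis) for each factor (y axis) in Ctrl (blue) and RES (red), with 95% counting intervals as bars and dotted lines at 1.5-fold. Nr4a1, Pou2f2 and Klf4 lie far right and Cebpa, Maf and Rbpj left in both libraries, and Nr1h3 is the one factor with widely separated points.

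Intermediate cells lay between the poles for most members. Over classical cells, 4 of 9 members were higher and 0 lower in Ctrl (5.92% and 5.54% of 5723 genes), and 4 higher and 1 lower in RES (7.92% and 5.08% of 5831 genes). The 4 were Nr4a1, Klf4, Pou2f2 and Nr1h3 in each library, and Rbpj was the lower one in RES at -0.71 (-0.99 to -0.44). Nr1h3 was at 20.02 CPM in classical and 49.6 CPM in intermediate Ctrl cells, and at 8.22 and 45.2 CPM in RES. When intermediate cells were taken from a cluster, of which they formed only 28.2%, the Nr4a1 ratio was 0.24 in Ctrl and 0.49 in RES, so these steps depend on the gate. The Cebpb step from classical to intermediate, 0.43 and 0.44 by the gates, turned to -0.40 and -0.10 by clusters. Without doublet removal the calls of all 9 members in this comparison were the same. That setting changed the class little, from 159 to 160 Ctrl and from 151 to 164 RES cells. It therefore cannot show whether doublets remain among cells with both marker sets.

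Maf and Nr1h3 had their highest levels in C1q macrophage-like cells in both libraries, although Maf in RES did not differ there from the Arg1-high class beyond counting error. Maf was at 544 CPM (493 to 600, exact Poisson interval) in Ctrl C1q cells and 252 CPM (212 to 298) in RES C1q cells, against 122 and 72.2 CPM in classical monocyte-like cells. Per cell this was 4.57 and 2.59 raw UMIs in C1q cells and 0.955 and 0.764 in classical cells. Nr1h3 was sparse everywhere, at 110 CPM (87.1 to 136) in Ctrl and 113 CPM (87.2 to 145) in RES C1q cells, from 81 and 63 UMIs. The C1q over classical ratio was 2.15 (1.94 to 2.37) and 1.81 (1.52 to 2.09) for Maf and 2.45 (1.95 to 2.97) and 3.79 (3.21 to 4.37) for Nr1h3. By clusters the Ctrl value for Nr1h3 was 0.52.

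Of the 9 members, 3 were higher and 3 lower in C1q than in classical cells in Ctrl (15.5% and 11.2% of 6153 genes). In RES the same direction held for the 3 higher ones, Maf, Nr1h3 and Rbpj, and 0 were lower (14% and 14.9% of 5984 genes). The 3 lower in Ctrl were Nr4a1 at -1.75 (-2.40 to -1.16), Cebpb at -1.44 (-1.63 to -1.25) and Pou2f2 at -0.78 (-1.03 to -0.53). In RES these 3 were at 0.23, 0.11 and 0.53. In Ctrl the call was lost for Pou2f2 under 3 of 12 alternatives and for Rbpj under 2 of 12, where it was 0.49 at the lowest.

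Rbpj stood highest in the Arg1-high class of RES, at 658 CPM (640 to 677) or 9.20 UMIs per cell, and 98.7% of these cells held a UMI. It was at 303 CPM in RES C1q, 247 CPM in cDC2-like, 137 CPM in classical, 83.3 CPM in intermediate and 55.5 CPM in nonclassical cells, and each step of this order exceeded counting error. The 8 Arg1-high Ctrl cells held 61 Rbpj UMIs, 508 CPM with an interval of 388 to 652, and are too few to compare the libraries in this class. Of the other Ctrl classes, the cDC2-like had the highest level with 284 CPM, followed by C1q cells with 176 CPM.

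Against classical RES cells, the Arg1-high class had 5 members higher and 0 lower, where 19.5% of 6127 genes were higher and 16.9% lower. They were Nr1h3 at 3.08 (2.64 to 3.56), Rbpj at 2.27 (2.16 to 2.38), Maf at 1.62 (1.46 to 1.78), Klf4 at 1.37 (1.27 to 1.46) and Nr4a1 at 0.79 (0.64 to 0.93). By clusters Nr4a1 was at 0.49, within 1.5-fold. The members' median was 0.79, against 0.05 over all genes. Cebpb was at 2144 CPM, or 29.97 UMIs per cell, and its ratio of 0.43 (0.39 to 0.47) was within 1.5-fold. Against RES C1q cells, Rbpj (1.12, 0.90 to 1.35) and Klf4 (0.90, 0.68 to 1.13) were higher and Nr1h3 (-0.70, -1.08 to -0.30) was lower, where 16.6% of 6040 genes were higher and 13.3% lower. Nr1h3 was at -0.21 when cells were thinned to 2000 UMIs, no longer past 1.5-fold. Maf and Cebpa did not differ between these 2 classes by 1.5-fold, at -0.19 (-0.44 to 0.07) and 0.38 (0.01 to 0.77).

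The Arg1-high RES class was mixed in C1q content: 236 of its cells also had at least 10 C1q UMIs and 305 had fewer. Between these 2 subsets 0 of 9 members were 1.5-fold apart (3.03% of 5848 genes were). Rbpj was at 659 CPM in the first and 658 CPM in the second, and Nr1h3 was the farthest apart, at 81.3 and 59.3 CPM. The class also held haemoglobin transcripts at 754 CPM, against 5.40 to 12.5 CPM in the other RES classes. The 3 platelet markers Pf4, Ppbp and Itga2b summed to 174 CPM, with all 3 seen. In RES C1q cells they summed to 108 CPM, all from Pf4, and in the remaining RES classes to at most 11.8 CPM. Whether these transcripts came from platelets, and the part of either set in the member levels, was not tested.

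**Figure D3:**
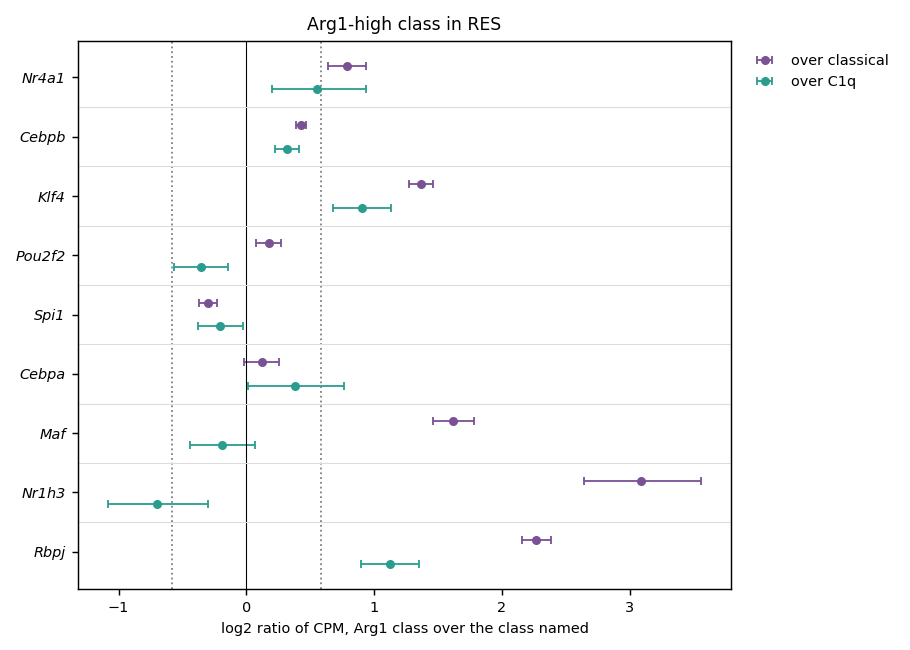
Log2 ratio of the Arg1-high RES class over classical (purple) and over C1q (green) RES cells (x axis) for each factor (y axis), with 95% counting intervals and dotted lines at 1.5-fold. Rbpj and Klf4 lie past 1.5-fold in both comparisons, whereas Nr1h3 and Maf are higher than in classical but not than in C1q cells.

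cDC2-like cells were set apart by what they lacked. Maf was seen with 3 UMIs in 135 Ctrl cells and 2 UMIs in 85 RES cells, and Nr1h3 with 4 and 5 UMIs. Cebpb was at 53.0 CPM in the Ctrl and 153 CPM in the RES cells, the lowest of the 6 classes in each library, and its ratio over classical cells was -4.17 (-4.55 to -3.81) and -3.38 (-3.62 to -3.15). Rbpj was higher than in classical cells by 1.39 (1.16 to 1.62) in Ctrl and 0.85 (0.64 to 1.06) in RES. Klf4 was level with classical cells in Ctrl at 0.27 and higher in RES at 0.71 (0.54 to 0.88). In all 1 member was higher and 5 lower in Ctrl (12.1% and 19.5% of 5924 genes), and 2 were higher and 3 lower in RES (13.4% and 20% of 6000 genes). Klf4 in RES was within 1.5-fold under 2 of 11 alternatives, and so was Cebpa in Ctrl. Nr1h3 in RES rests on 5 UMIs and had the opposite sign under stricter gates.

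Cebpb was the one member higher in RES than in Ctrl by 1.5-fold in all 5 classes that could be compared. The log2 ratio was 0.74 (0.68 to 0.81) in classical, 0.76 (0.67 to 0.84) in intermediate and 0.66 (0.60 to 0.72) in nonclassical cells. The mean per cell was 7.43 raw UMIs in Ctrl and 16.9 in RES classical cells, and 11.7 and 18.3 in nonclassical cells. In C1q cells the ratio was 2.30 (2.10 to 2.50), from 351 to 1724 CPM, and in cDC2-like cells 1.53 (1.10 to 1.97). In nonclassical cells it was 0.58 at the lowest among the alternatives, just within 1.5-fold. The 5 classes come from the same 2 libraries and are not replicates. Over all genes 3.91% were higher in classical, 6.46% in intermediate, 6.09% in nonclassical, 11.5% in C1q and 9.81% in cDC2-like cells. The share of all genes higher in the 5 classes at once was not counted.

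NK cells, outside the 6 classes, also held more Cebpb in RES, with 89.9 CPM against 52.3 CPM. The ratio was 0.78 (0.57 to 0.99), where 0.858% of 5946 genes were 1.5-fold higher. For each 100 Spi1 UMIs, NK cells held 756 Cebpb UMIs in Ctrl and 1424 in RES, whereas classical cells held 159 and 282 and nonclassical cells 238 and 350. NK cells thus held Cebpb in another ratio to Spi1 than the monocyte-like classes did. In cDC2-like cells Cebpb was seen in 7.41% of Ctrl cells thinned to 2000 UMIs, below the 10.1% of NK cells, and in 18.8% of RES cells, where NK cells had 16.3%. The Ctrl share of cDC2-like cells thus did not exceed that of NK cells.

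Nr1h3 and Maf were lower in RES classical cells. Nr1h3 stood at 8.22 CPM in RES against 20.02 CPM, from 45 and 56 UMIs, a ratio of -1.28 (-1.88 to -0.69). In nonclassical cells it was higher instead, at 39.5 and 71.6 CPM (0.86, 0.45 to 1.29), which fell to 0.53 when gates were set on thinned cells. Maf was at 122 and 72.2 CPM in classical cells (-0.76, -0.97 to -0.55), and at 111 and 78.8 CPM in intermediate cells (-0.49, -0.85 to -0.14), within 1.5-fold. Pou2f2 was at -0.51 (-0.63 to -0.39) in classical cells, within 1.5-fold but past it at -0.68 at the lowest among the alternatives. Nr4a1, Klf4 and Spi1 stayed within 1.5-fold in the 3 monocyte-like classes, from -0.21 to 0.30.

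By count, 1 member was higher and 2 lower in classical cells (3.91% and 4.4% of 5753 genes), 1 higher and 0 lower in intermediate cells (6.46% and 4.48% of 5777), and 2 higher and 0 lower in nonclassical cells (6.09% and 2.89% of 5915). The members' medians were -0.17, -0.09 and 0.11, against 0.02, 0.04 and 0.06 over all genes. These percentages give all genes higher, then lower, and in intermediate cells 1 of 9 members is close to that background.

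**Figure D4:**
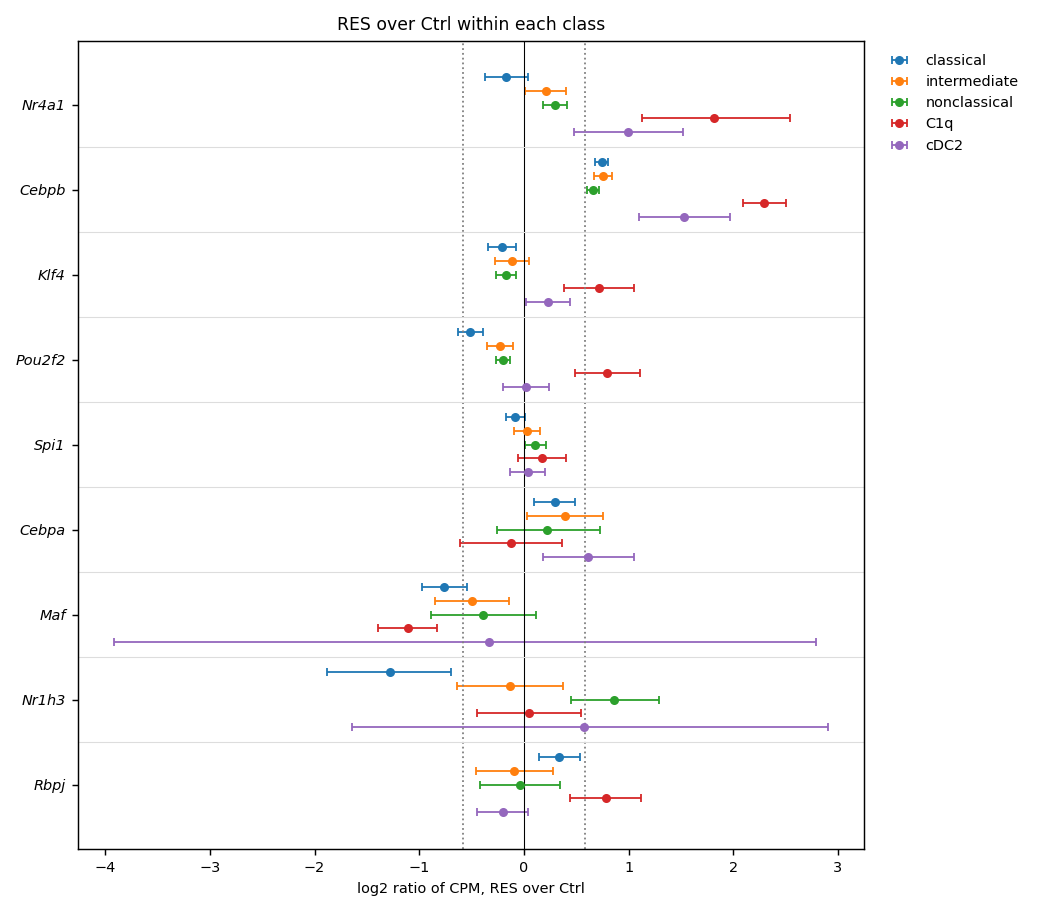
Log2 ratio of RES over Ctrl (x axis) for each factor (y axis) in 5 classes (colours), with 95% counting intervals and dotted lines at 1.5-fold. All 5 Cebpb points lie right of the 1.5-fold line, Spi1 points lie near 0, and the C1q points of Nr4a1 and Maf lie on opposite sides.

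In C1q macrophage-like cells, the smallest of the 5 classes, 5 members were higher and 1 lower in RES, where 11.5% of 6172 genes were higher and 17.9% lower. These shares over all genes were above those of the other 4 classes. Beside Cebpb, Nr4a1 had 25 UMIs (33.9 CPM) in Ctrl and 66 UMIs (119 CPM) in RES, a ratio of 1.81 (1.13 to 2.54). Its share of cells thinned to 2000 UMIs was 4.60% in Ctrl (4 of 87 cells, 1.27 to 11.4), close to the 3.77% of NK cells. In RES it was 15.1% (8 of 53 cells, 6.75 to 27.6), and the 2 intervals overlap. Unthinned, the 25 Ctrl UMIs came from 13 cells and the 66 RES UMIs from 19 cells, with up to 12 in a cell. The counting interval of the ratio does not cover this spread between cells. Pou2f2 was at 0.80 (0.49 to 1.11), Rbpj at 0.78 (0.44 to 1.12) and Klf4 at 0.72 (0.38 to 1.06). Maf was lower, at -1.11 (-1.40 to -0.83), and Cebpa, Spi1 and Nr1h3 were within 1.5-fold. The members' median was 0.72, against -0.03 over all genes.

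The make-up of the C1q class also differed. Of 54 RES cells 18 had 2 to 9 UMIs of Arg1 and Spp1, against 3 of 88 Ctrl cells. Limited to cells with at most 1 such UMI, Klf4 was at 0.38 and Rbpj at 0.26, no longer past 1.5-fold. Pou2f2 was within 1.5-fold under 4 of 11 alternatives, among them cells thinned to 2000 UMIs. Markers of cDC1, a dendritic cell type, summed to 188 CPM in Ctrl and 39.6 CPM in RES C1q cells, and Kupffer markers to 39.3 and 7.21 CPM. Their part in these differences was not tested. Nr4a1, Cebpb and Maf kept their call under all 11 alternatives.

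In cDC2-like cells 3 members were higher in RES and 0 lower (9.81% and 6.95% of 5696 genes), with a median of 0.23 against 0.03 over all genes. Beside Cebpb these were Nr4a1, at 43.1 and 85.8 CPM (1.0, 0.48 to 1.52), and Cebpa, at 67.1 and 103 CPM (0.61, 0.18 to 1.05). Cebpa was within 1.5-fold under 7 of 11 alternatives, and Nr4a1 was at 0.29 when gates were set on thinned cells.

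The share of cells with a UMI depends on depth, so each cell was also thinned to 2000 UMIs. After thinning, Cebpb was seen in 73.7% of classical cells in Ctrl (68.8 to 78.2, exact Clopper-Pearson interval) and 90.5% in RES (87.7 to 92.9), and in 34.5% and 88.7% of C1q cells. In NK cells the thinned share was 10.1% and 16.3%. Unthinned, Cebpb was in 96.1% and 99.2% of classical, 67.0% and 96.3% of C1q, and 16.3% and 30.3% of NK cells. The median depth of classical cells was 7748.5 UMIs in Ctrl and 10448 in RES, and that of NK cells 3320 and 4102.5.

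Nr4a1 was in 21.3% and 18.2% of thinned classical cells and in 58.9% and 70.1% of thinned nonclassical cells (unthinned 44.1%, 50.9%, 83.2% and 92.4%), against 3.77% and 4.21% of NK cells. Rbpj was in 71.7% of thinned Arg1-high RES cells (67.7 to 75.5), 41.5% of C1q, 34.1% of cDC2-like and 10.6% of nonclassical RES cells, and in 5.35% of NK cells. Maf was in 57.5% of Ctrl and 24.5% of RES C1q cells. NK cells held Maf in 11.9% and 11.4% of thinned cells, at or above the nonclassical shares of 5.93% and 5.31%. NK cells are known to express Maf, so for this gene they are no background. The limit is not particular to Maf. For each 100 Spi1 UMIs, Ctrl NK cells held 303 Nr4a1, 436 Klf4, 717 Pou2f2 and 442 Rbpj UMIs. Classical Ctrl cells held 19.0, 42.3, 59.7 and 18.1. As with Cebpb, these are other ratios to Spi1 than in classical cells, so the NK shares of these genes are a comparison and may not be background. For the monocyte genes Cebpa and Spi1 the thinned NK shares were 0.296% and 0.357%, and 1.33% and 1.21%.

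The share of cells with several members together depends on the share with each of them. In thinned Arg1-high RES cells, for example, Klf4 alone was in 56.2% and Rbpj in 71.7%. Whether genes were seen together more often than their single shares give was not tested, so the joint shares are a description. All 4 of Nr4a1, Cebpb, Klf4 and Pou2f2 were seen together in 40% of thinned nonclassical cells from Ctrl (34.1 to 46.1) and 50.1% from RES (45.5 to 54.7). The share was 4.76% and 1.93% in classical cells and 17.0% and 19.9% in intermediate cells. It was 0 of 87 C1q and 0 of 135 cDC2-like cells in Ctrl, and 7.58% in Arg1-high RES cells. Klf4 and Rbpj were seen together in 42.5% of Arg1-high RES cells (38.3 to 46.8), in 22.6% of RES C1q and 16.5% of RES cDC2-like cells, and in 8.28% of RES nonclassical cells.

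**Figure D5:**
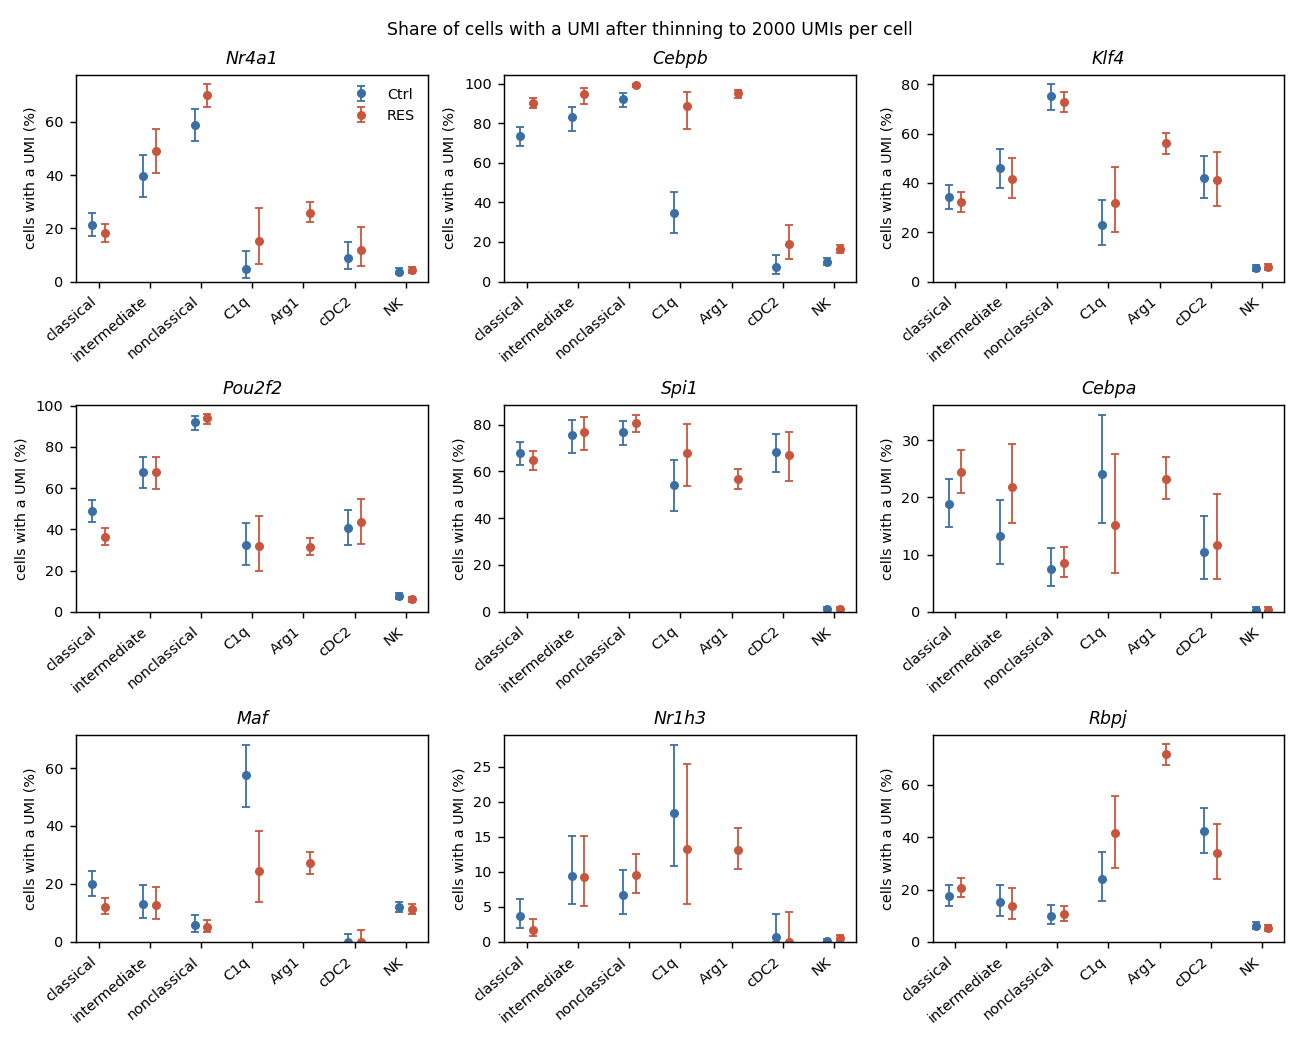
Share of cells with a UMI after thinning to 2000 UMIs per cell (percent, y axis from 0) by class (x axis) in Ctrl (blue) and RES (red), with exact 95% Clopper-Pearson intervals; the Ctrl Arg1-high class is left out. Nearly all nonclassical RES cells hold Cebpb (99.4%), Arg1-high RES cells lead for Rbpj (71.7%), and the highest NK share is that of Cebpb in RES (16.3%).

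Genes that work with the members were read from 10 lists of 109 genes, chosen with earlier results of these data known. Of the 7 further Krüppel-like factors, 6 were measured at 20 CPM or more, and 3 were higher and 0 lower in nonclassical than in classical Ctrl cells, 5 and 0 in RES (median 0.61 and 0.78). Over all genes 18.2% were higher and 13.6% lower in Ctrl and 22.8% and 14.2% in RES, with medians of 0.09 and 0.13. Klf2, a regulator of quiescence and migration, was at 418 and 1115 CPM in classical and nonclassical Ctrl cells (1.42, 1.31 to 1.52) and at 426 and 1053 CPM in RES (1.30, 1.22 to 1.38). The paralogs Nr4a2 and Nr4a3 were under 20 CPM in the gated myeloid classes of both libraries, the 8-cell Ctrl Arg1-high class left out. Nr4a1 was thus the only NR4A gene measured above that level in these classes. In NK cells both paralogs reached 20 CPM in at least 1 library.

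Of the 5 listed C/EBP genes, 3 were measured at 20 CPM or more in classical and in intermediate cells and 4 in nonclassical cells. Among these, Cebpd, a C/EBP family member induced in inflammation, was the one past 1.5-fold between libraries. It was at 122 and 242 CPM in classical (1.0, 0.82 to 1.17), 90.3 and 139 CPM in intermediate (0.62) and 51.0 and 82.4 CPM in nonclassical cells (0.69), and thus opposite to Cebpb in its class order. In C1q cells it was at -0.26 (-0.90 to 0.36), and in cDC2-like cells it was the 1 higher of 3 measured. Over all genes 3.91% were higher in classical, 6.46% in intermediate, 6.09% in nonclassical and 9.81% in cDC2-like cells.

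Among the ETS and IRF partners of PU.1, Irf8, which directs monocyte and dendritic cell development, was lower in RES in all 5 classes. The ratios were -0.74 (-0.86 to -0.61) in classical, -0.57 (-0.78 to -0.36) in intermediate, -0.75 in nonclassical, -0.86 in C1q and -1.0 in cDC2-like cells, of which the intermediate value was within 1.5-fold. Ets1 was at 2.14 CPM (6 UMIs) in classical and 68.6 CPM in nonclassical Ctrl cells, and at 1.64 and 118 CPM in RES. Between libraries 0 of the 7 measured partners were higher and 1 lower in classical cells (3.91% and 4.4% of all genes), and 3 of 9 were higher and 1 lower in nonclassical cells (6.09% and 2.89%).

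Zeb2, a repressor expressed across mononuclear phagocytes, stayed within 1.5-fold between libraries in all 5 classes, from -0.30 to 0.09.

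Of the 15 LXR partners and targets, 14 were measured in the Arg1-high over classical comparison in RES, 6 higher and 3 lower (median 0.30), against 19.5% and 16.9% of all genes (median 0.05), so the number lower is near the background. Abca1, the cholesterol exporter that LXR induces, was at 8.95 CPM in classical and 112 CPM in Arg1-high cells (3.65, 3.23 to 4.10), and Mertk, an LXR-induced receptor for dying cells, at 2.01 and 27.4 CPM (3.77, 2.90 to 4.79). Between libraries Abca1 was at -1.08 (-1.67 to -0.49) in classical cells and at 0.03 in C1q cells. In nonclassical cells, where Nr1h3 was higher in RES, 0 of 12 measured genes of this list were past 1.5-fold (median -0.03), against 6.09% of all genes higher and 2.89% lower.

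Of the 25 Notch pathway genes, 16 were measured between Arg1-high and classical RES cells, 5 higher and 3 lower (median -0.01), against the same 19.5% and 16.9% of all genes. Adam10, the protease that cleaves activated Notch receptors, was at 99.6 and 367 CPM (1.88, 1.75 to 2.02). Hes1, a Notch target, had its highest level where Rbpj was lowest: it was at 16.4 and 223 CPM in classical and nonclassical Ctrl cells (3.76, 3.32 to 4.24) and at 23.2 and 220 CPM in RES (3.24, 2.97 to 3.53). The receptor gene Notch2 was at 79.4 and 117 CPM in these Ctrl classes (0.56) and at 77.8 and 141 CPM in RES (0.86). Between libraries, Notch genes past 1.5-fold numbered 0 of 16 in classical cells, 1 higher and 2 lower of 17 in nonclassical cells, and 4 higher and 3 lower of 15 in C1q cells. Over all genes 3.91% and 4.4% were higher and lower in classical, 6.09% and 2.89% in nonclassical, and 11.5% and 17.9% in C1q cells, so the 3 lower Notch genes there are near the background.

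Nr4a1 is itself an immediate-early gene that tissue handling induces, so the 15 listed genes of that kind are given beside it. In RES over Ctrl, 6 were higher and 1 lower of 13 measured in classical cells (median 0.51), 7 and 0 of 15 in intermediate, 5 and 1 of 14 in nonclassical (median 0.23), 7 and 1 of 15 in C1q (median 0.56) and 5 and 0 of 15 in cDC2-like cells (median 0.30). The shares of all genes that were higher were 3.91%, 6.46%, 6.09%, 11.5% and 9.81% in these classes. The shares that were lower were 4.4%, 4.48%, 2.89%, 17.9% and 6.95%. In NK cells 0 of 11 were past 1.5-fold. Over all genes only 0.858% were higher there, so 0 higher is near the background, and the share lower is not given here. Ier3 was at 47.4 and 184 CPM in C1q cells (1.95, 1.39 to 2.55), and Fosb at 134 and 61.2 CPM there (-1.13). Fos was at 635 and 1188 CPM in classical cells (0.90, 0.83 to 0.98), where Nr4a1 was at -0.17 (-0.37 to 0.04). From classical to nonclassical cells, where Nr4a1 was higher, 5 of 14 of these genes were higher and 4 lower in Ctrl (median 0.41). In RES 3 of 15 were higher and 4 lower (median 0.37). Over all genes 18.2% were higher and 13.6% lower in Ctrl, and 22.8% and 14.2% in RES. The number higher in RES is thus near the background. Of the listed genes, Hspa1b had the highest ratio and Ier3 the lowest in both libraries. The part of handling in the levels of Nr4a1 and Cebpb was not tested.

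Across the 12 class and library values, the genes most like each member were ranked by Pearson correlation of log2(CPM + 10) among 2353 genes, as a description of points that share libraries. The closest to Nr1h3 was its head-to-head neighbour Acp2, at 0.956, ranging from 11.8 to 161 CPM, and it was also closest without the 8-cell class, at 0.980. Rap1a led for Nr4a1 (0.962), Cox5b for Cebpa (0.978), Ostf1 for Cebpb (0.971), Tet2 for Spi1 (0.977), Agpat4 for Klf4 (0.974), Nab1 for Pou2f2 (0.977), Timp2 for Maf (0.956) and Tomm20 for Rbpj (0.972). These rankings depend on the measure: with Spearman's correlation or without the 8-cell class, only 2 of 18 lists of the top 3 genes stayed the same. Among the members themselves, over the 11 values from at least 50 cells, Spi1 and Pou2f2 were most alike (0.947) and Spi1 and Rbpj least (-0.884).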

How the data were processed

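The authors deposited, for each of the 2 libraries, a gene by barcode matrix of unnormalized UMI counts made with Cell Ranger 3.1.0, per the file headers, with bcl2fastq and the mm10 build named in the submitters' processing notes. The gene annotation and the strand setting were not given in the sources used here.

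Cells with under 200 genes (31 Ctrl, 13 RES) or over 10% mitochondrial UMIs (244 and 119) were left out, and so were the highest Scrublet scores (scanpy 1.11.5) at 0.8% per 1000 barcodes (109 and 146). Classes were gated on raw UMI sums, with thresholds set after the marker distributions had been seen, and cells fitting no gate were not used, among them 352 Ctrl and 282 RES myeloid cells. UMIs were summed over the cells of a class and scaled to its UMI total (CPM). Sums carry exact Poisson, ratios exact conditional binomial and shares exact Clopper-Pearson 95% intervals (scipy 1.17.1), which cover counting error only. With 1 library per group no test between groups was made, and a gene was called apart past 1.5-fold. The background of each count is the genes with at least 20 CPM on either side, whereas all 9 members were counted. Scripts were tested on simulated data. The members and lists were chosen with earlier results of these data known.

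Besides the members, the genes named were up to 2 with the highest and 2 with the lowest ratio of each list, a few partners fixed by name (Irf8, Zeb2, Notch2, Abca1, Klf2, Nr4a2, Nr4a3) and immediate-early genes. 1 further gene of that rule is not reported here. Alternatives covered filters, doublets, gates, clusters, scaling, thinning, the fold and the minimum CPM.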

Additional observations from a re-analysis of the deposited data

Results flagged for a closer look

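Between RES and Ctrl, 2 genes named here were past 1.5-fold in opposite directions in different classes, and the difference between the classes was not tested. Nr1h3 was lower in classical monocyte-like cells, with a log2 ratio of -1.28 from 56 and 45 UMIs, and higher in nonclassical cells, at 0.86 from 65 and 200 UMIs. Fosb, an immediate-early gene, was higher in classical (0.67), intermediate (0.89) and nonclassical cells (0.89) and lower in C1q macrophage-like cells, at -1.13 from 99 and 34 UMIs.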

How the results depend on the processing

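Counts of members past 1.5-fold were within 1.5 times the reported count in 189 of 204 alternatives. A fold of 2 in place of 1.5 left, for RES over Ctrl, 1 member in classical, 0 in intermediate, 0 in nonclassical, 3 in C1q and 1 in cDC2-like cells, and left 3 for intermediate over classical, 2 for cDC2-like over classical and 1 for Arg1-high over C1q cells in RES. The shares of all genes past a fold of 2 were not counted, so these counts have no background beside them. At 1.5-fold, the count for RES over Ctrl in intermediate cells was 4 with stricter gates and 2 with cells thinned to 2000 UMIs. In nonclassical cells it was 1 with gates on thinned cells and 1 by clusters, and in cDC2-like cells 1 with gates on thinned cells. By clusters, intermediate over classical gave 2 in Ctrl and 2 in RES. At a minimum of 100 CPM the list genes past 1.5-fold between libraries fell from 15 to 9 in classical, 13 to 4 in intermediate, 19 to 6 in nonclassical, 39 to 17 in C1q and 22 to 9 in cDC2-like cells, since fewer genes were counted.

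Of the ratios past 1.5-fold, the sign turned for Rbpj in intermediate over classical RES cells by clusters (0.36) and for Nr1h3 in cDC2-like over classical RES cells with stricter gates (0.19, from few UMIs). Of 66 ratios within 1.5-fold, 32 had the other sign under at least 1 alternative, among them Cebpb in intermediate over classical cells. The sign also turned for the share of classical cells with a Pou2f2 UMI, which was 3.69 percentage points higher in RES without thinning. Of 1561 ratios 1375 moved by less than their counting interval. No cluster was mainly cDC2-like, and C1q cells of RES were too few by clusters, so neither gave a value. The limits of 1 Arg1 or Spp1 UMI, the nonclassical set without Spn and the correlation without the 8-cell class were chosen after seeing the data. No paired analysis was possible because each group has 1 library.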
